A study of Homo sapiens with 18 samples.

Results

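Myosins are the motor proteins that use ATP to move along actin filaments. Of the 19849 genes measured in parental and mesenchymal lung cancer cells, 39 carry the symbol of a myosin heavy chain, which does not show that each encodes a working motor. They were taken from the expression table by their symbols, as every gene named MYO or MYH followed by a number and, where present, an isoform letter. Of these, 38 are reported here. Of the 38, 37 entered by symbol alone, whereas MYO1D prompted the choice of the family, because it had already been seen on these arrays to change in opposite directions between cell lines. The values of MYO1D are therefore given as a description without a test, and all counts below are of the 37 other genes.

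The study asked how epithelial-mesenchymal transition (EMT), in which epithelial cells lose their cell-cell contacts and become motile, alters lung cancer cells. Parental A549, HCC827 and NCI-H358 cells, which are human non-small cell lung cancer lines of epithelial origin with different driver mutations, were compared with mesenchymal derivatives of the same line. The mesenchymal cells had received 2 ng/ml TGFβ, a cytokine that induces EMT, for 3 weeks according to the sample descriptions, the methods giving a range of weeks that was longer for HCC827 and NCI-H358 than for A549, and TGFβ was left out from the day before lysis. The parental cells were untreated, all groups shared the same growth medium, and each of the 6 groups had 3 arrays, which the study describes as separate biological samples made together. Each group was thus 1 established line on 1 occasion, and an effect of TGFβ itself and an effect of EMT cannot be told apart. RNA came from whole cultures, so that fewer cells expressing a gene and less RNA per cell cannot be told apart either.

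The myosin superfamily is divided into classes that share a motor head and differ in their tails. Class II heavy chains pair into bipolar filaments that contract actin, as in muscle and in the stress fibers of nonmuscle cells. Class I myosins are single-headed and link membranes to actin, class V and class VI myosins carry vesicles and organelles in opposite directions along actin, and class X myosin gathers at the tips of filopodia. Epithelial cells use several of these motors to build microvilli and to deliver cargo to the apical surface, and EMT is known for a change of actin organization from cortical bundles to stress fibers.

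The markers of the transition were checked first. On the log2 scale used throughout, where a difference of 1 is 2-fold, CDH1 (E-cadherin) fell by 5.81 from parental to mesenchymal cells of A549, by 2.95 in HCC827 and by 3.94 in NCI-H358, and FN1 (fibronectin) was higher by 3.11, 3.98 and 1.99. CDH2 (N-cadherin) was higher by 1.94, 3.26 and 2.04 in the same order, and ZEB1, a repressor of epithelial genes, by 0.79, 4.18 and 3.66. VIM (vimentin) was higher by 0.79, 2.03 and 2.31 and SNAI1 by 0.52, 0.85 and 0.92, so that 3, 5 and 5 of these 6 markers passed 2-fold with an adjusted p below 0.05 by limma. The 4 epithelial markers (EPCAM and 3 keratins) had list means between 9.17 and 13.51 over the groups, with 2, 4 and 4 of them lower in mesenchymal cells. EPCAM was as low as 4.57 in mesenchymal A549. The defining markers of striated muscle (8 genes, 5.16 to 5.59) and of blood and endothelium (5 genes, 4.36 to 4.65) had lower list means in all groups. Single muscle genes were not all low, with NEB at 7.19 in parental HCC827 (percentile 58.7 of all genes) and TTN at 6.57 in mesenchymal NCI-H358 (percentile 52.2). Blood and endothelial genes reached percentile 41.3 at most. Only NEB in HCC827 and CD14 in A549 were called, both lower. Differences between arrays of 1 group had an SD of 0.163 to 0.282 over all genes, against 0.719 to 0.896 between parental and mesenchymal arrays of a line.

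Promoter sequences of the 4 myosin genes with the clearest patterns, MYO1D with opposite changes, MYO5B and MYO5C that fell in all 3 lines and MYO10 that rose, are shown because ZEB and SNAI factors of EMT bind the E-box CACCTG, which reads CAGGTG on the other strand. Each is the 250 bases before the RefSeq transcription start on GRCh38.p14, all on the minus strand, at chr17:32877125-32877374 for MYO1D, chr18:50195148-50195397 for MYO5B, chr15:52295805-52296054 for MYO5C and chr5:16936289-16936538 for MYO10, printed 5′ to 3′ with the E-box in capitals:
MYO1D: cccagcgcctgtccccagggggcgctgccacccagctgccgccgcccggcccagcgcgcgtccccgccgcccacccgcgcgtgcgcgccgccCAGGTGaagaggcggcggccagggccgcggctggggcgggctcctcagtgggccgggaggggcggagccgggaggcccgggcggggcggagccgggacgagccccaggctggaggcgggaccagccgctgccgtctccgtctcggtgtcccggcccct
MYO5B: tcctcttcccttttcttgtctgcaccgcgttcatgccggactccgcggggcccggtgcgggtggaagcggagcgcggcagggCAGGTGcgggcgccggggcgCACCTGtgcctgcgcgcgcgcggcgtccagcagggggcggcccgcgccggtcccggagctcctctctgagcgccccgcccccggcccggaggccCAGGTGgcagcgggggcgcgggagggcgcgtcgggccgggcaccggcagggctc
MYO5C: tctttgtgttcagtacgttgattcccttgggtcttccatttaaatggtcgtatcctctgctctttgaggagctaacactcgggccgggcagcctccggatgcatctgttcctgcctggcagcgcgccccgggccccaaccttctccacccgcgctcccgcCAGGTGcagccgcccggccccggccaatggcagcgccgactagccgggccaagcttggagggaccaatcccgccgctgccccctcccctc
MYO10: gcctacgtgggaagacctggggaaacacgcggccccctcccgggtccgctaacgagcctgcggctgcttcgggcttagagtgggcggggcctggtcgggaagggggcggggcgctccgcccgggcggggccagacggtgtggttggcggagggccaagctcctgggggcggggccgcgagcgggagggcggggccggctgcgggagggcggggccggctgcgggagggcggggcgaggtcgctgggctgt
The MYO5B window held 3 E-boxes, with first bases 168, 148 and 54 bases before the start. MYO1D held 1 at 158 bases and MYO5C 1 at 90 bases before the start, and the letters did not occur in the MYO10 window. Of all 35116 RefSeq windows of this length, 17.5% held the motif on either strand, and of 27305 genes, 20.6% had it in at least 1 window. Among the 38 myosin genes, 31 had a window and 7 of them held the motif, namely MYO1C, MYO1D, MYO3A, MYO5B, MYO5C, MYO7B and MYH10. The 7 genes had different responses, from falls in all 3 lines for MYO5B and MYO5C to no called change for MYH10, and a match of letters is a description and not a binding site. Of the other genes called in a line below, MYO3B and MYO6 (lower) and MYO5A, MYO10 and MYH9 (higher) had windows without the motif. MYO7A (lower) had no window. The windows of MYO1D, MYO5B, MYO5C and MYO10 were 83.2%, 80.0%, 65.6% and 78.8% G or C, against a median of 58.0% over all windows.

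MYO1D is a short-tailed class I myosin whose fly ortholog sets left-right asymmetry of organs. Its level was low in parental A549 cells and near the middle of all genes in parental HCC827 and NCI-H358 cells (percentiles 51.9 and 53.8). The 3 parental A549 arrays read 3.27, 3.11 and 3.46 and the 3 mesenchymal arrays 5.73, 6.27 and 5.85. In HCC827 the parental arrays read 7.05, 6.56 and 6.24 and the mesenchymal arrays 3.83, 3.87 and 4.12. In NCI-H358 they read 6.51, 6.96 and 6.77 and then 3.94, 3.93 and 4.04. Parental and mesenchymal arrays did not overlap in any line, with the mesenchymal arrays higher in A549 and lower in the other lines. The group means were 6.37-fold higher in A549, 6.39-fold lower in HCC827 and 6.87-fold lower in NCI-H358. The lower group of each line had a low signal. Parental A549 was at percentile 8.02 of all genes, mesenchymal HCC827 at 15.6 and mesenchymal NCI-H358 at 15.3, so that the folds may be understated. Ordered by mean, the lowest group was parental A549 (3.28 ± 0.18, SD, n = 3), followed by mesenchymal HCC827 (3.94 ± 0.16) and mesenchymal NCI-H358 (3.97 ± 0.06), whose arrays overlapped. Mesenchymal A549 (5.95 ± 0.28), parental HCC827 (6.62 ± 0.41) and parental NCI-H358 (6.75 ± 0.23) formed the upper end, and the highest mesenchymal A549 array, 6.27, lay just above the lowest parental HCC827 array, 6.24. MYO1D was thus, of the 38 genes, the one with the widest spread between lines in its change. The change in HCC827 minus that in A549 was -5.35 log2 units and the change in NCI-H358 minus that in A549 was -5.45, as the selection of this gene implies.

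**Figure D1:**
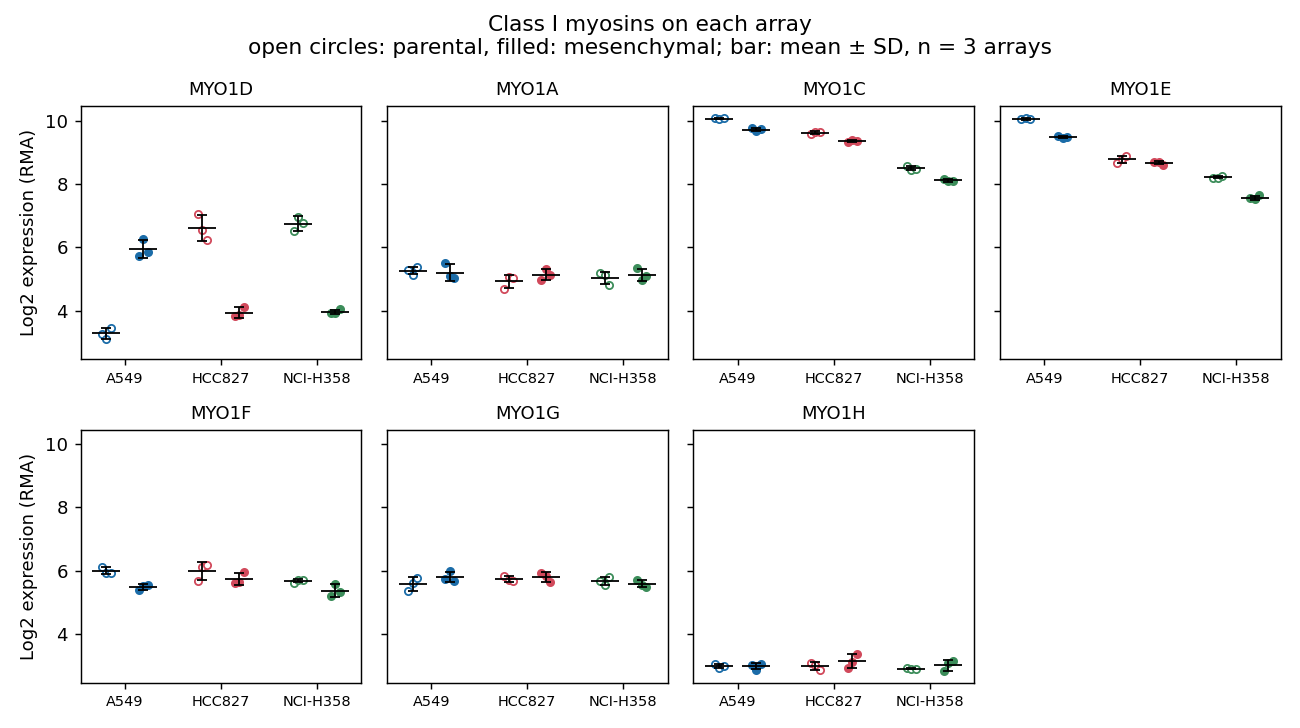
Log2 expression (RMA) of 7 class I myosin genes on each array, with parental arrays as open and mesenchymal arrays as filled circles and bars for the mean ± SD of 3 arrays. MYO1D moved up in A549 and down in HCC827 and NCI-H358, and the other genes shown stayed within 1 log2 unit of their parental mean in every line.

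Among the 37 genes, none was called in opposite directions in 2 lines, where a gene was called at an adjusted p below 0.05 by limma (Benjamini-Hochberg over all 19849 genes) and a change over 2-fold. Among all genes, 0.937% were. In A549, 3 of the 37 genes were called, with 1 higher (2.70%, against 4.15% of all genes) and 2 lower (5.41%, against 3.87%). In HCC827, 6 were called, with 3 higher (8.11%, against 4.89%) and 3 lower (8.11%, against 6.58%). In NCI-H358, none of them was called higher (3.96% of all genes were) and 4 were called lower (10.8%, against 5.42%). These shares rest on 3 to 6 genes a line, and the median changes of the 37 genes in the 3 lines were -0.006, 0.055 and -0.005, beside -0.021, 0.005 and 0.015 over all genes. Another 11, 10 and 11 genes had an adjusted p below 0.05 with a change under 2-fold, a setting for which the share of all genes is not given here. In all, 8 genes were called in at least 1 line (MYO3B, MYO5A, MYO5B, MYO5C, MYO6, MYO7A, MYO10 and MYH9). The share of all genes called in at least 1 line is not given here, so this count is not read as a trait of the family. The changes of the 29 others lay between -0.88 for MYO15B in A549 and 0.92 for MYH4 in HCC827. At the study's own thresholds, an adjusted p below 1e-05 and over 5-fold, MYO5C passed in A549 (where 1.90% of all genes did), and MYO5B and MYO5C passed in HCC827 (2.95%) and in NCI-H358 (2.17%).

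**Figure D2:**
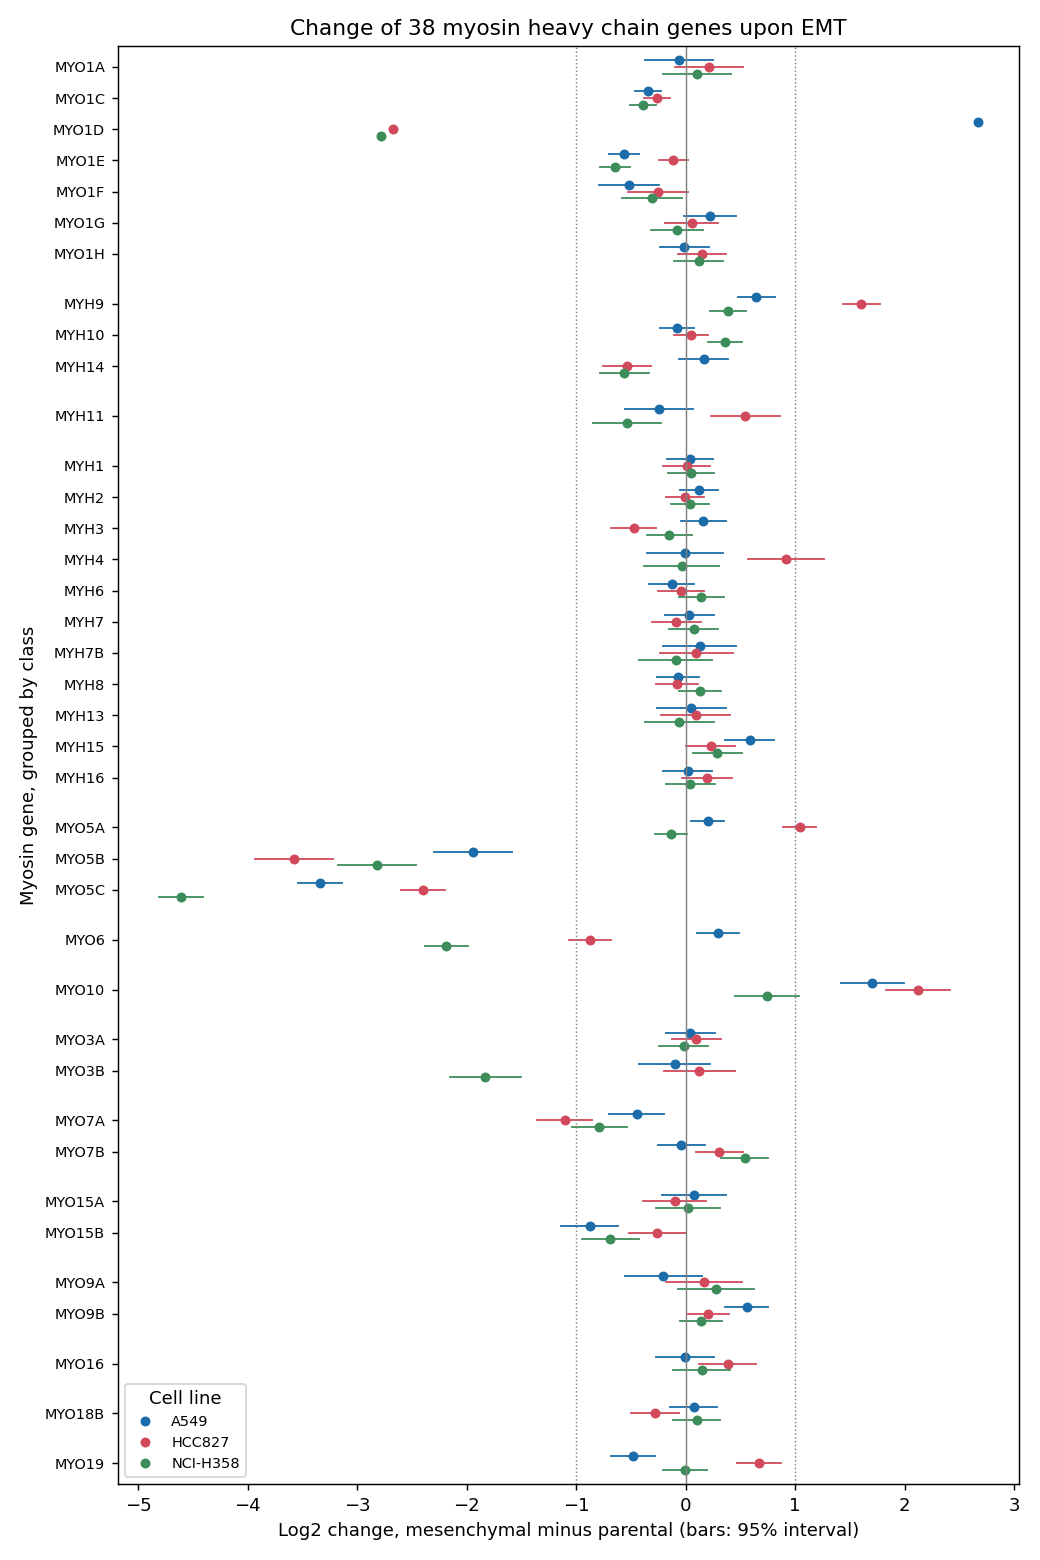
Log2 change from parental to mesenchymal cells (x axis) of the 38 myosin genes reported, grouped by class, in A549, HCC827 and NCI-H358, with 95% intervals from limma except for MYO1D and dotted lines at 2-fold. MYO5B and MYO5C lay left of the 2-fold line in all 3 lines, MYO10 lay right of it in A549 and HCC827, and most class II muscle genes lay near 0.

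Of the 6 class I genes besides MYO1D reported here, none changed over 2-fold in any line. MYO1C, which delivers membrane cargo to the cell surface, decreased in each line by a small amount, by 0.34, 0.26 and 0.39 in A549, HCC827 and NCI-H358 (adjusted p = 8.39e-05, 8.4e-04 and 2.22e-05). MYO1E, which works in endocytosis and in the podocyte, decreased by 0.57 in A549 (adjusted p = 1.39e-06) and by 0.65 in NCI-H358 (adjusted p = 2.36e-07), and its arrays overlapped in HCC827 (-0.11, adjusted p = 0.174). These falls were under 2-fold but larger than the spread, since the MYO1C arrays did not overlap in any line. MYO1F, a myosin of immune cells, decreased by 0.52 in A549 (adjusted p = 0.00365) and had differences of -0.25 and -0.31 in the other lines that did not pass. The brush border myosin MYO1A, the blood cell myosin MYO1G and MYO1H had an adjusted p above 0.05 in every line, with differences between -0.08 and 0.22.

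Class V held the 2 genes that fell over 2-fold in all 3 lines, MYO5B and MYO5C. MYO5B, which carries RAB11 recycling endosomes to the apical membrane and is mutated in microvillus inclusion disease, read 5.99, 6.55 and 6.54 in parental A549 cells and 4.65, 4.20 and 4.40 in mesenchymal A549 cells. In HCC827 the MYO5B arrays read 7.94, 7.52 and 7.28 and then 3.83, 4.05 and 4.13. In NCI-H358 they read 7.00, 7.15 and 6.97 and then 4.20, 4.11 and 4.33. All 9 mesenchymal arrays lay below all 9 parental arrays, although the lines started at different levels. In A549 the fall of MYO5B was 3.85-fold (SE 0.17, adjusted p = 4.88e-08), whereas in HCC827 it was 11.9-fold (adjusted p = 1.35e-11), and NCI-H358 lay between them at 7.07-fold (adjusted p = 3.45e-10). The fall was larger in HCC827 than in A549, the change there minus that in A549 being -1.63 log2 units (adjusted p = 2.54e-05). Parental HCC827 cells had started 2.33-fold higher than parental A549 cells (adjusted p = 6.23e-06). The mesenchymal means of 4.41, 4.01 and 4.22 in A549, HCC827 and NCI-H358 were low, at percentiles 21.3, 16.4 and 18.4 of all genes. The folds may thus be understated, and the difference in change between lines cannot be told apart from that in parental level.

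MYO5C, the class V myosin of secretory granules in glandular epithelia, had similar parental levels in the lines and different mesenchymal levels. It read 9.96, 9.77 and 9.78 in parental and 6.58, 6.60 and 6.32 in mesenchymal A549 cells. In HCC827 the arrays read 9.93, 9.80 and 9.83 and then 7.41, 7.53 and 7.43, and in NCI-H358 10.31, 10.22 and 10.13 and then 5.72, 5.70 and 5.41. The parental and mesenchymal arrays were separated by more than 2 log2 units in every line. The fall of MYO5C was 10.1-fold in A549 (SE 0.09, adjusted p = 2.25e-14), 5.27-fold in HCC827 cells (adjusted p = 1.43e-12) and 24.4-fold for NCI-H358 (adjusted p = 9.67e-16). The fall was largest in NCI-H358, its change minus that in A549 being -1.27 (adjusted p = 7.11e-07) and minus that in HCC827 -2.21 (adjusted p = 1.14e-09). MYO5B and MYO5C were the only ones of the 37 genes called lower in all 3 lines, as 0.907% of all genes were, and none was called higher in all 3, as 0.761% of all genes were.

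MYO5A, the third class V gene and the motor of melanosomes, did not fall with them. In HCC827 it read 6.85, 6.99 and 6.93 in parental and 7.91, 7.94 and 8.04 in mesenchymal cells, a 2.06-fold rise (SE 0.07, adjusted p = 1.54e-09) that lay just inside the threshold and, without mesenchymal HCC827 replicate 3 (replicates carry no number in the labels and are numbered here in the order of their records), just outside it (0.9999 on the log2 scale). In A549 the difference was 0.20 (adjusted p = 0.0288, and 0.156 at most with 1 array left out), and in NCI-H358 it was -0.13 (adjusted p = 0.155). MYO5A had begun lower in parental HCC827 than in parental A549 (3.76-fold) and parental NCI-H358 (3.63-fold), and the mesenchymal HCC827 arrays stayed below all arrays of both other lines. The change in NCI-H358 minus that in HCC827 was -1.17 (adjusted p = 7.3e-08). In RefSeq, MYO5A and MYO5C are neighbors among protein-coding genes.

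**Figure D3:**
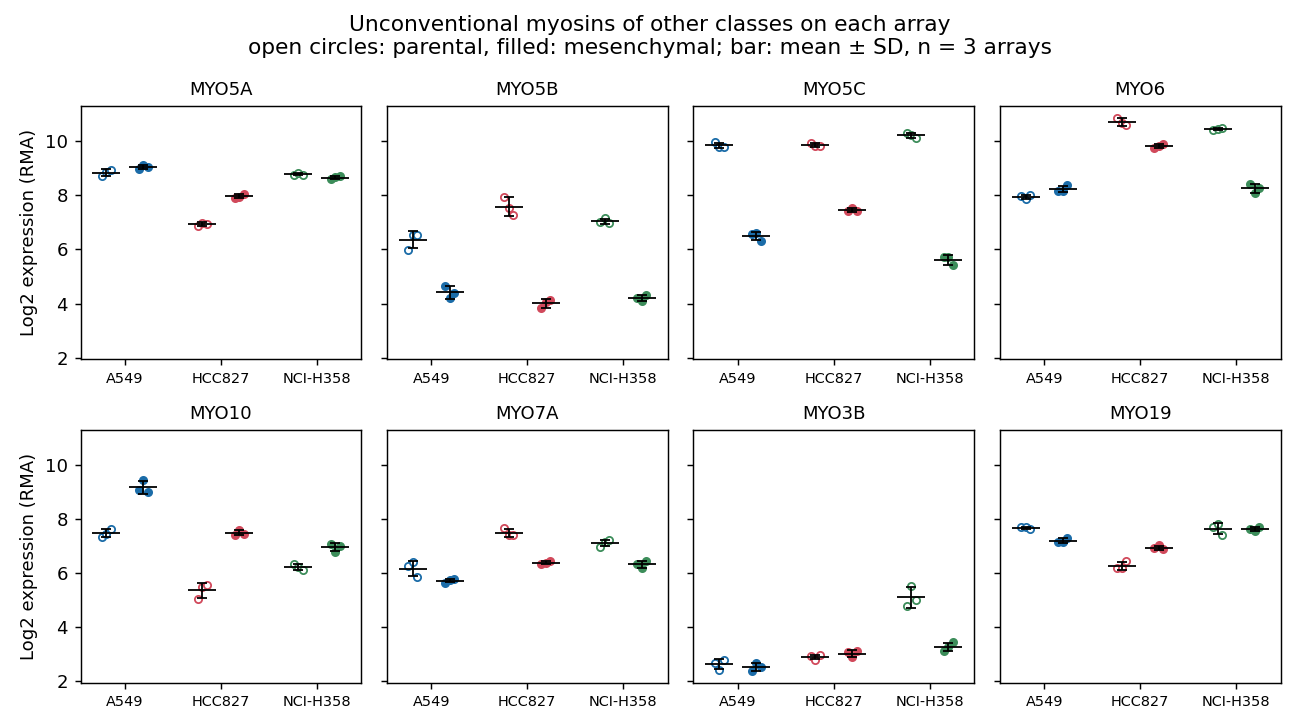
Log2 expression (RMA) of 8 unconventional myosin genes outside class I on each array, with parental arrays as open and mesenchymal arrays as filled circles and bars for the mean ± SD of 3 arrays. MYO5B and MYO5C dropped in all 3 lines, MYO10 rose in A549 and HCC827 and by less in NCI-H358, and MYO6 and MYO3B dropped most in NCI-H358.

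MYO10, which elongates filopodia and carries integrins to their tips, had higher levels in the mesenchymal cells of every line. In A549 it read 7.34, 7.42 and 7.62 in parental and 9.07, 9.44 and 8.99 in mesenchymal cells, and in HCC827 5.04, 5.47 and 5.57 and then 7.40, 7.59 and 7.45. In NCI-H358 it read 6.31, 6.20 and 6.09 and then 7.05, 6.78 and 7.00. The groups did not overlap in any line, and the parental HCC827 arrays were the lowest of all 18. MYO10 rose 3.26-fold in A549 (SE 0.14, adjusted p = 1.87e-08) and 4.35-fold in HCC827 (adjusted p = 7.69e-10), whereas the 1.67-fold rise in NCI-H358 (adjusted p = 2.47e-04) was under 2-fold. The rise was smaller in NCI-H358, its change minus that in HCC827 being -1.38 (adjusted p = 2.1e-05) and minus that in A549 -0.96 (adjusted p = 5.86e-04), and the difference between HCC827 and A549 did not pass (0.42, 95% interval 0.01 to 0.82, adjusted p = 0.0974). Parental A549 had the highest parental level, 4.30-fold above HCC827 and 2.39-fold above NCI-H358.

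MYO6, the myosin that moves toward the minus end of actin and works in endocytosis, was lower in parental A549 than in both other parental lines and fell in HCC827 and NCI-H358. In NCI-H358 it read 10.40, 10.46 and 10.48 in parental and 8.42, 8.10 and 8.26 in mesenchymal cells, a 4.55-fold fall (SE 0.09, adjusted p = 3.91e-12). In HCC827 it read 10.86, 10.67 and 10.58 and then 9.74, 9.83 and 9.90, a fall of 1.83-fold (adjusted p = 3.94e-07), which is under 2-fold. In A549 it read 7.96, 7.85 and 8.01 and then 8.16, 8.17 and 8.36, a 1.23-fold rise (adjusted p = 0.0152) whose adjusted p reached 0.082 with 1 array left out. Parental MYO6 was 6.79-fold higher in HCC827 and 5.68-fold higher in NCI-H358 than in A549, and after treatment the NCI-H358 arrays overlapped those of mesenchymal A549 cells. All 3 pairs of lines differed in the MYO6 change, by -1.17 for HCC827 minus A549 (adjusted p = 1.25e-06), -2.48 for NCI-H358 minus A549 (adjusted p = 1.13e-10) and -1.31 for NCI-H358 minus HCC827 (adjusted p = 4.51e-07). Without a fold threshold, MYO6 was 1 of 3 genes with an adjusted p below 0.05 in opposite directions in 2 lines, next to MYH11 and MYO19. The share of all genes at that setting is not given here, so the count is not read as a trait of the family.

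MYO7A and MYO3B are known for their work in the actin protrusions of inner ear hair cells. MYO7A read 7.64, 7.41 and 7.38 in parental and 6.32, 6.38 and 6.42 in mesenchymal HCC827 cells, a 2.15-fold fall (SE 0.12, adjusted p = 5.6e-07). It fell 1.73-fold in NCI-H358 (adjusted p = 3.34e-05) and 1.36-fold in A549 (adjusted p = 0.00554), without overlap of the groups in either line, so that the direction was the same in all 3. MYO3B, which bears a kinase domain ahead of its motor, read from 4.77 to 5.51 in the 3 parental arrays of NCI-H358 and 3.12, 3.25 and 3.44 in their mesenchymal counterparts. This was a 3.55-fold fall (SE 0.15, adjusted p = 2.58e-08), while the MYO3B means of the A549 and HCC827 groups lay between 2.52 and 3.02, below those of both NCI-H358 groups. The MYO3B signal of the A549 and HCC827 groups was among the lowest of all genes, which left little room for a fall, so that the difference in change between lines cannot be told apart from the difference in parental level. The mesenchymal NCI-H358 level was low as well, at percentile 7.40 of all genes, and the fold there may be understated.

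MYO19, the motor of mitochondria, was called in no single line but differed between lines. Its level decreased by 0.48 in A549 (adjusted p = 4.72e-04) and rose by 0.67 in HCC827 (adjusted p = 1.28e-05), and the difference of 1.15 passed (adjusted p = 2.09e-06). In NCI-H358 the parental and mesenchymal arrays overlapped (difference -0.01, adjusted p = 0.975). Parental HCC827 cells had 2.65-fold less MYO19 than parental A549 cells and 2.59-fold less than parental NCI-H358 cells, with a mesenchymal mean of 6.93 that stayed below the 7.19 of mesenchymal A549 cells. MYO15B decreased by 0.88 in A549 (adjusted p = 1.46e-05) and by 0.69 in NCI-H358 (adjusted p = 1.72e-04), and MYO9B, which carries a domain that switches off RHOA, rose by 0.56 in A549 (adjusted p = 8.55e-05). MYO15B, MYO9B and MYO19 were all under 2-fold and were singled out after their values were seen.

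Among the nonmuscle class II heavy chains, which drive contraction of stress fibers and of the cell cortex, MYH9 rose in all 3 lines and passed 2-fold in HCC827. MYH9 read 9.12, 9.40 and 9.34 in parental and 10.87, 10.91 and 10.89 in mesenchymal HCC827 cells, a 3.04-fold rise (SE 0.08, adjusted p = 2.39e-11). It rose 1.56-fold in A549 (adjusted p = 3.48e-06), from 9.64, 9.85 and 9.92 to 10.44, 10.46 and 10.43, and 1.31-fold in NCI-H358 (adjusted p = 6.58e-04), from 9.67, 9.66 and 9.56 to 10.02, 10.05 and 9.98. The mesenchymal arrays were above the parental ones in each line. The MYH9 rise was larger in HCC827 than in NCI-H358, the NCI-H358 change minus that in HCC827 being -1.22 (adjusted p = 1.8e-07). The HCC827 change in MYH9 minus that in A549 was 0.96 (adjusted p = 2.14e-06). It was not called because it lay just under 1 log2 unit. MYH10 showed the largest difference between parental lines of the 38 genes. It read 6.22, 6.56 and 6.36 in parental NCI-H358 cells, against means of 11.32 in A549 and 11.64 in HCC827, which were 30.7-fold (adjusted p = 1.94e-18) and 38.2-fold (adjusted p = 1.98e-18) higher. Upon EMT, MYH10 rose 1.28-fold in NCI-H358 (adjusted p = 6.47e-04) to 6.71, 6.67 and 6.84, still far below the other lines, and differed by -0.08 and 0.05 in A549 and HCC827 (adjusted p = 0.451 and 0.659). MYH14, a heavy chain of epithelia, decreased by 0.56 in NCI-H358 (adjusted p = 3.03e-04) and by 0.54 in HCC827 (adjusted p = 3.88e-04) and differed by 0.17 in A549 (adjusted p = 0.23).

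The muscle heavy chains gave little signal. The smooth muscle gene MYH11 rose by 0.54 in HCC827 (adjusted p = 0.0058) and decreased by 0.54 in NCI-H358 (adjusted p = 0.00721), and the difference of NCI-H358 minus HCC827 was -1.08 (adjusted p = 5.24e-04), moving as far as -0.95 and inside 2-fold when parental HCC827 replicate 2, parental NCI-H358 replicate 2 or mesenchymal NCI-H358 replicate 3 was left out. The 11 genes grouped by symbol as striated muscle heavy chains were called in no line. Their group means were 2.89 to 5.71, with changes of -0.47 for MYH3 to 0.92 for MYH4, both in HCC827. The MYH4 arrays in HCC827 read 3.53, 3.53 and 3.79 and then 4.74, 4.86 and 4.00, so that 1 mesenchymal array stayed close to the parental ones. Of the 38 genes, 11 lay below the 25th percentile of all genes in every group, namely MYH1, MYH2, MYH3, MYH4, MYH8, MYH15, MYH16, MYO1H, MYO3A, MYO15A and MYO16, and on arrays a low signal does not show that a transcript was absent.

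Whether the lines differed in their changes was asked of the 37 genes by a contrast in the same fit, calling differences over 1 log2 unit. Between HCC827 and A549, 3 of the 37 genes differed (8.11%, against 13.4% of all genes), MYO19 being higher and MYO5B and MYO6 lower in HCC827. Between NCI-H358 and A549, 3 differed (8.11%, against 12.7%), MYO3B, MYO5C and MYO6, all lower in NCI-H358. Between NCI-H358 and HCC827, 7 differed (18.9%, against 11.0%), all lower in NCI-H358, namely MYO3B, MYO5A, MYO5C, MYO6, MYO10, MYH9 and MYH11. The 3 contrasts share groups, so that these counts are not independent of one another. Between parental cells, 9 genes differed over 2-fold between HCC827 and A549 (24.3%, against 18.8%), 6 between NCI-H358 and A549 (16.2%, against 20.4%) and 7 between NCI-H358 and HCC827 (18.9%, against 15.2%). MYO1E, MYO6 and MYO10 were called in both contrasts with A549, MYO6 being lower and MYO1E and MYO10 higher in A549.

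The partners of these motors were read from 5 lists of 65 genes, all measured, of which 8 were called in A549 (4 higher, 4 lower), 13 in HCC827 (7 higher, 6 lower) and 10 in NCI-H358 (4 higher, 6 lower). Calls over the whole array were 4.15% higher and 3.87% lower for A549. The HCC827 shares were 4.89% higher, 6.58% lower, and those of NCI-H358 3.96% higher, 5.42% lower. List medians below stand beside all-gene medians of -0.021 (A549), 0.005 (HCC827) and 0.015 (NCI-H358). Whether the lists differ from all genes was not tested. Of the 13 myosin light chains, MYL9, the regulatory light chain of nonmuscle and smooth muscle myosin, was called higher in all 3 lines and MYL5 lower in HCC827. MYL9 read 5.39, 5.52 and 5.65 and then 6.78, 6.99 and 7.26 in A549, and it rose 2.81-fold there (adjusted p = 1.27e-07), 3.94-fold in NCI-H358 (adjusted p = 2.9e-09) and 3.87-fold in HCC827 (adjusted p = 2.77e-09). The MYL9 groups did not overlap in any line, and the median change of the 13 light chains was 0.14, 0.03 and 0.17. Among the 4 tropomyosins, which coat the actin filaments that myosin II pulls on, TPM1 rose by 2.79 log2 units in HCC827 (adjusted p = 1.95e-12), 1.11 in NCI-H358 (adjusted p = 3.39e-07) and 0.88 in A549 (adjusted p = 6.02e-06). The medians of the 4 were 0.64, 0.94 and 0.69 in A549, HCC827 and NCI-H358, and 0, 2 and 2 of them were called.

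Among the regulators of the light chain, 1 gene was called in opposite directions. PPP1R14C, an inhibitor of protein phosphatase 1, read 5.31, 5.31 and 5.44 in parental and 9.26, 9.47 and 9.44 in mesenchymal A549 cells, a 16.4-fold rise (adjusted p = 1.79e-14). It rose 2.74-fold in HCC827 (adjusted p = 8.05e-09) and fell 3.40-fold in NCI-H358 (adjusted p = 8.11e-10), from 8.34, 8.45 and 8.54 to 6.70, 6.55 and 6.78. As with MYO1D, parental A549 was the group with the lowest PPP1R14C level and NCI-H358 moved down, but HCC827 moved in the other direction from MYO1D. MYLK, the myosin light chain kinase, read 10.31, 10.31 and 10.28 and then 7.56, 7.43 and 7.39 in A549, a 7.14-fold fall (adjusted p = 1.82e-15), whereas it differed by -0.07 in HCC827 (adjusted p = 0.449) and rose 1.48-fold in NCI-H358 (adjusted p = 1.85e-06). Of the 17 kinases and phosphatase subunits, 2 were called in each line, with medians of -0.01, 0.22 and 0.16.

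**Figure D4:**
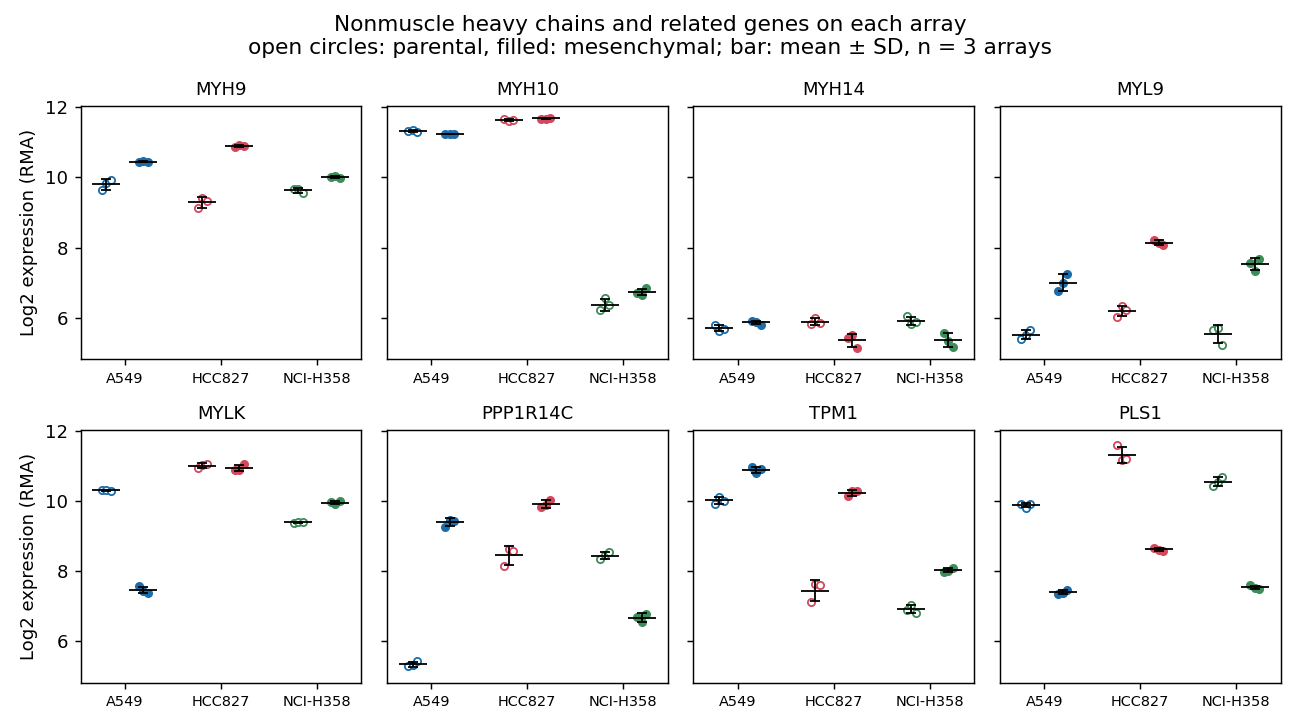
Log2 expression (RMA) of the nonmuscle heavy chains MYH9, MYH10 and MYH14 and of 5 partner genes on each array, with parental arrays as open and mesenchymal arrays as filled circles and bars for the mean ± SD of 3 arrays. MYH10 was near 6.4 to 6.7 in NCI-H358 and above 11 in both other lines, MYL9 rose and PLS1 fell in all lines, and PPP1R14C rose in A549 and HCC827 and fell in NCI-H358.

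Of the 21 cargo adaptors and chaperones, 3, 4 and 3 were called in A549, HCC827 and NCI-H358. The small GTPase RAB27B, which marks secretory vesicles that class V myosins carry, fell in all 3 lines. The fall was 2.94-fold in A549 (adjusted p = 3.17e-07), 3.52-fold in NCI-H358 (adjusted p = 4e-08) and 2.70-fold in HCC827 (adjusted p = 6.11e-07). RAB11A was called lower in HCC827 only, and RAB27A was called in no line. Mesenchymal RAB27B levels were low, at percentiles 13.9, 20.0 and 15.1 of all genes in A549, HCC827 and NCI-H358, so that the folds may be understated. MLPH, which links RAB27A to MYO5A, rose 2.59-fold in HCC827 (adjusted p = 1.17e-10) and fell 2.08-fold in NCI-H358 (adjusted p = 4.44e-09), with overlapping arrays in A549 (-0.08, adjusted p = 0.412). EXPH5, another RAB27 effector, fell 2.45-fold in HCC827 (adjusted p = 1.73e-06) and 5.05-fold in NCI-H358 (adjusted p = 1.26e-09), and in A549 both groups had a mean of 3.50, a low signal that left little room for a fall. Of the 10 microvillus and protrusion genes, 2, 3 and 2 were called. PLS1 (plastin 1), which bundles actin in microvilli, fell 5.56-fold in A549 (adjusted p = 1.43e-12), 8.03-fold in NCI-H358 (adjusted p = 1.59e-13) and 6.46-fold in HCC827 (adjusted p = 4.17e-13). EZR (ezrin), which ties membranes to actin, fell 2.98-fold in A549 (adjusted p = 1e-07) and 3.55-fold in NCI-H358 (adjusted p = 1.37e-08) and 1.75-fold in HCC827 (adjusted p = 1.52e-04). The medians of the adaptors were -0.16, -0.05 and -0.20 and those of the microvillus genes 0.06, -0.35 and -0.06. MYL5, MYL9, RAB27B and EZR were singled out after their values were seen.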

How the data were processed

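Total RNA of 18 cultures was hybridized to Affymetrix U133 Plus 2.0 arrays. Normalization by RMA was done by the authors, and the deposited table holds log2 expression values with 1 probe set per gene for 19849 genes. The rule that chose the probe set and the annotation version are not given in the sources used here. Other probe sets of the same gene were not compared, so that each level and change rests on 1 probe set. Of the 38 myosin probe sets, 7 end in _s_at and 1 in _x_at, endings that mark probes shared with other transcripts. All values were used as deposited and grouped by the source labels, and 0 value columns lacked a sample. Mesenchymal and parental cells were compared with limma 3.58.1 in R 4.3.3 (lmFit, eBayes) in 1 fit of 6 groups without covariates. P-values were adjusted by Benjamini-Hochberg over all genes per contrast, and a gene was called at an adjusted p below 0.05 and over 2-fold. The script was tested on simulated data. Arrays have no read depth, and their number, 3 per group, limits the precision. An exact permutation test of 3 against 3 arrays cannot go below 0.1 and was not used. Genes were named if called in any line, or as class I or nonmuscle class II members, and partner genes if past the study's thresholds or called in opposite directions. The genes and lists were chosen with earlier results of these data known. Other fold thresholds, separate fits, a filter on dim probe sets, median-centering, array weights, an eBayes prior that follows intensity, the methods' t-test and omission of each array were tried. Promoters came from a RefSeq table, which lacked 7 of the 38 genes. A result that concerns 1 other gene matched by the symbols is not reported here.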

Additional observations from a re-analysis of the deposited data

Results flagged for a closer look

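The changes upon EMT of several myosin genes and partner genes differed between lines by over 1 log2 unit in limma's test of the difference itself (Benjamini-Hochberg over all genes). Each value below is the change in the line named first minus that in the line named second.

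MYO1D differed by -5.35 between HCC827 and A549 and by -5.45 between NCI-H358 and A549, which was not tested because this gene had been selected for it.

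Against A549, HCC827 differed by -1.63 for MYO5B (adjusted p = 2.54e-05), -1.17 for MYO6 (1.25e-06) and 1.15 for MYO19 (2.09e-06). NCI-H358 differed from A549 by -1.27 for MYO5C (7.11e-07), -2.48 for MYO6 (1.13e-10) and -1.73 for MYO3B (4.73e-06). NCI-H358 differed from HCC827 by -1.22 for MYH9 (1.8e-07), -1.08 for MYH11 (5.24e-04), -1.17 for MYO5A (7.3e-08) and -2.21 for MYO5C (1.14e-09). In the same pair of lines the differences were -1.31 for MYO6 (4.51e-07), -1.38 for MYO10 (2.1e-05) and -1.95 for MYO3B (1.4e-06). MYO3B was near the low end of all signals in A549 and HCC827, so that its differences cannot be told apart from that in parental level.

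The partner genes below had adjusted p-values from 5.94e-14 to 0.00182. Among the light chain and tropomyosin genes, MYL5 differed by -1.29 between HCC827 and A549 and by 1.39 between NCI-H358 and HCC827, and TPM1 by 1.91 and -1.68 in the same pairs. MYLK differed by 2.77 between HCC827 and A549 and by 3.40 between NCI-H358 and A549. PPP1R14C differed by -2.58 between HCC827 and A549, -5.80 between NCI-H358 and A549 and -3.22 between NCI-H358 and HCC827.

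Among the cargo adaptors, MLPH differed by 1.46 between HCC827 and A549 and by -2.43 between NCI-H358 and HCC827. EXPH5 differed by -1.29 between HCC827 and A549, -2.34 between NCI-H358 and A549 and -1.04 between NCI-H358 and HCC827, and the differences from A549 are limited in the same way by its low signal there. RAB11A differed by -1.53 and TOM1 by -1.20 between HCC827 and A549, and TOM1 by -1.01 between NCI-H358 and A549, which passed 1 log2 unit in 10 of 18 runs that left out 1 array. DAB2 differed by -1.60 between HCC827 and A549 and by 1.14 between NCI-H358 and HCC827. Among the microvillus and protrusion genes, EZR differed by -1.02 and FSCN1 by -1.05 between NCI-H358 and HCC827, and VIL1 by -1.08 between HCC827 and A549.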

How the results depend on the processing

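The number of myosin genes called depended on the fold threshold and on little else that was tried. With 3, 6 and 4 genes called in A549, HCC827 and NCI-H358, the study's thresholds left 1, 2 and 2, no fold threshold (chosen after seeing the data) gave 14, 16 and 15, and over 1.5-fold gave 5 in A549 and 8 in NCI-H358. Of the 65 partner genes, 8, 13 and 10 were called, against 13 and 23 in A549 and HCC827 over 1.5-fold, 3, 4 and 6 over 3-fold, 3, 2 and 2 at the study's thresholds, and 25, 38 and 34 without a fold threshold. Shares of all genes are not given here for the settings over 1.5-fold, over 3-fold and without a fold threshold. Leaving out 1 array at a time gave 3, 6 to 7 and 4 myosin genes, 8, 11 to 14 and 9 to 10 partner genes, 3 to 4, 3 to 4 and 6 to 8 differences between lines and 9, 6 to 7 and 7 between parental lines. The counts stayed within 1.5 times under separate fits, a filter on dim probe sets (25 myosin genes left), median-centering, array weights, an eBayes prior that follows intensity and the methods' t-test. The call of MYO5A in HCC827 was lost with array weights as well as without 1 array. VIL1 in HCC827 lost its call under the methods' t-test, median-centering and array weights. Of 18 runs that left out 1 array, the call held in 15 for VIL1 and TPM2 and in 17 for FSCN1 and CDC42BPA in HCC827, and in 16 for CDC42BPA in NCI-H358. Differences between lines held in 10 runs for TOM1 (NCI-H358 and A549), in 17 for VIL1 (HCC827 and A549), and, between NCI-H358 and HCC827, in 13 for EZR, 14 for EXPH5, 15 for FSCN1 and MYH11 and 17 for DAB2. In the runs that left out 1 array, each of these calls was lost by moving inside 2-fold, with an adjusted p of at most 0.00617. Under the methods' t-test the VIL1 change in HCC827 stayed just over 2-fold, and its call was lost on the adjusted p. Of 3751 values of single genes under alternatives, 3598 kept their direction and side of the thresholds, 93 lost and 40 gained a call, 20 without a call changed sign or moved beyond the spread, and 0 reversed a call. No paired analysis was possible because the labels carry no replicate numbers, those used here following the order of the records.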
